A study of Mus musculus with 60 samples.

Results

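The 10 genes described here are core parts of the mammalian circadian clock: Arntl, Clock, Per1, Per2, Per3, Ciart, Nr1d1, Nr1d2, Dbp and Tef. They were chosen by name, with earlier results of these data known, and all 10 were found among the 55011 rows of a gene count table. The series holds 60 mouse RNA-sequencing libraries, and the 52 libraries made from whole fat are used here, 38 from brown adipose tissue (BAT) and 14 from subcutaneous adipose tissue (SAT). The study set fat that lacks regulatory T (Treg) cells beside fat that has them, in several settings. All mice were 8-week-old males.

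The 16 whole-fat groups were as follows. In the D4 experiment, DTR+ and DTR- mice of the B6.Foxp3.DTR strain received diphtheria toxin (DT), with 4 libraries per genotype from BAT and 4 from SAT. The D3 experiment had the same strain, genotypes and toxin, the word PBS in its titles, and 3 libraries per genotype and depot. In this strain the diphtheria toxin receptor is carried by cells that express Foxp3, so the toxin removes Treg cells from DTR+ mice and the DTR- mice serve as controls that also got the toxin. A further BAT experiment held DTR+ mice given DT and CL, DTR- mice given DT and CL, and DTR- mice given DT and PBS, with 3 libraries each. CL is the usual short name of a beta-3 adrenergic agonist in fat biology, and the labels do not spell it out. Another had DTR+ mice given DT with an antibody to interferon gamma (anti-IFNg) or with an isotype control antibody, 3 BAT libraries each. Wild-type C57BL/6J mice got PC61, an antibody to CD25, or an isotype control antibody, 3 BAT libraries each, with no DT. The last group was BAT of 3 mice held at 4 degrees Celsius and given PBS without DT, whose titles say WT while the genotype label says DTR-. The labels do not say whether D3 and D4 are days, whether BAT and SAT came from the same mice or whether each library is a separate mouse. The p-values therefore measure the spread between these libraries, which may be technical. The hour of collection and the light schedule are not in the labels either.

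Library totals over all 60 libraries ran from 3007241 to 9673342 counts. The summed level of 4 brown adipocyte markers (Ucp1, Cidea, Dio2 and Cox7a1) was 7734 to 25199.8 CPM (counts scaled to the TMM-adjusted library total) in the 38 BAT libraries and 138 to 1214 CPM in the 14 SAT libraries, with no marker at 0 in any group. Foxp3 had at most 7 counts in any BAT library and at most 29 in any SAT library, so whole fat gives no usable check of Treg loss. Skeletal muscle markers summed to between 1.33 and 5507 CPM in BAT and varied within nearly every group. In SAT, DTR- D4 replicate 3 stood apart by T cell markers (117 CPM, against 7.05 to 9.35 CPM in the other DTR- D4 libraries) and DTR+ D4 replicate 3 by muscle markers (1746 CPM, against 21.2 to 56.6 CPM in the other DTR+ D4 libraries).

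The clock is a feedback loop of transcription. CLOCK and BMAL1, the product of Arntl, bind E-boxes and drive the Per and Cry genes, Ciart, Nr1d1, Nr1d2, Dbp and Tef. PER and CRY proteins, and CHRONO, the product of Ciart, then repress CLOCK and BMAL1. REV-ERB alpha and beta, the products of Nr1d1 and Nr1d2, repress Arntl through ROR elements, and the PAR bZIP activators DBP and TEF act at D-boxes, as in the Per genes. In mouse fat, as in liver, Arntl peaks at nearly the opposite time of day to Dbp and Nr1d1, so samples taken at different hours can differ in opposite directions for these genes.

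The elements that join these genes can be read in their promoters. RefSeq promoter windows of 250 bases before to 50 bases after the start, on GRCm38.p6, were held for 9 of the 10 genes, with 14 starts, and not for Per2. The searched letters, on both strands, were CACGTG (E-box), TTATGTAA or TTATGCAA (D-box), TAGGTCA (core of the ROR element), TGACG (core of the cAMP response element, CRE) and TGACGTCA (the whole CRE, which holds that core on both strands). Over all 32851 promoter windows of the same length, an E-box was in 7.15%, 3 or more E-boxes in 0.0883%, a D-box in 1.66%, 2 or more D-boxes in 0.0487%, the ROR core in 2.61%, the CRE core in 20.8% and the whole CRE in 1.79%. The 4 windows shown were picked among those that hold a searched element, and do not stand for the 10 genes as a set. The first listed start of Arntl held none and is not shown. Shown are Ciart with 3 E-boxes, Per1 with an E-box and a D-box, and Per3 with 2 D-boxes. The second listed start of Arntl is shown with the ROR core. Capitals mark these elements, and the CRE core, found at both listed starts of Per1 and at no other start of the 9 genes, is not marked.
Ciart (chr3:95882179-95882478, minus strand): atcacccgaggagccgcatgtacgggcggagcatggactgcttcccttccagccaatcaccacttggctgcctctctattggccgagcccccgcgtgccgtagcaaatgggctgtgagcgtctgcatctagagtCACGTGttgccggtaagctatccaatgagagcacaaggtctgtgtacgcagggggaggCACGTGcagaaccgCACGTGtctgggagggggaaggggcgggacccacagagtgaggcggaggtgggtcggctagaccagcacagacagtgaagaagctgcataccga
Per1 (chr11:69098699-69098998, plus strand): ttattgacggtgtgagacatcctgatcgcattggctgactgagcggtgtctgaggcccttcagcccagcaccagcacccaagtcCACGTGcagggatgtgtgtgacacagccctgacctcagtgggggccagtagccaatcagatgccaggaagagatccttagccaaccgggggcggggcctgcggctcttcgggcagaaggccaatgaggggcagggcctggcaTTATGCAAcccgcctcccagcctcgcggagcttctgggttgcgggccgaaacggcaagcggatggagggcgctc
Per3 (chr4:151044616-151044915, minus strand): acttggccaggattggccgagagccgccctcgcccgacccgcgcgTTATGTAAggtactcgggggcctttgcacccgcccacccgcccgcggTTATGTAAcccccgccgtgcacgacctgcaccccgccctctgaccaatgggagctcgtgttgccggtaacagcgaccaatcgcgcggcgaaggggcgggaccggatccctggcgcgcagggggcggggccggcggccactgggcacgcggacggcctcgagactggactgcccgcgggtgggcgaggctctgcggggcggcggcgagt
Arntl (chr7:113207261-113207560, plus strand): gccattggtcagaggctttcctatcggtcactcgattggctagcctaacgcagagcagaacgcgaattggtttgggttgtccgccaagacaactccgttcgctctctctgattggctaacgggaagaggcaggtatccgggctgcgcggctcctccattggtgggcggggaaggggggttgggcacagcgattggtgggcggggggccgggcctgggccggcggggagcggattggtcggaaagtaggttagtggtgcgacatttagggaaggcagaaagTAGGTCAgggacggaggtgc
Tef held an E-box at each of its 2 listed starts. The windows of Clock, Nr1d1, Nr1d2 and Dbp held none of the searched letters, which says only that they are not in those 300 bases.

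A higher Ciart level came back in each DTR+ over DTR- comparison of brown fat. Ciart, the CHRONO repressor on chromosome 3 (mm10, 95878503 to 95882251, minus strand), had 58.6, 48.4, 76.7 and 59.1 CPM in DTR+ BAT at D4, against 1.03, 1.23, 8.11 and 2.58 CPM in DTR- BAT. At D3 it had 78.8, 66.2 and 50.5 CPM in DTR+ BAT, against 5.84, 3.23 and 5.4 CPM in DTR- BAT. Every DTR+ library stood far above every DTR- library in both experiments. The log2 fold change, given for genotype as DTR+ over DTR- with its standard error, was 4.21 ± 0.58 at D4 (edgeR adjusted p 0.00342) and 3.79 ± 0.25 at D3 (edgeR adjusted p 3.41e-06).

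Nr1d1, which encodes REV-ERB alpha and lies on chromosome 11 (98767932 to 98775333, minus strand), was the second gene of this pattern. It had 287, 349, 416 and 279 CPM in DTR+ BAT at D4, against 158, 122, 159 and 149 CPM in DTR- BAT, and the groups did not overlap. At D3 the values were 414, 393 and 334 CPM in DTR+ BAT and 233, 170.4 and 179 CPM in DTR- BAT, again without overlap. The log2 fold change was 1.23 ± 0.13 at D4 (edgeR adjusted p 3.35e-05) and 1.00 ± 0.14 at D3 (edgeR adjusted p 0.00103). Of the exonic length of Nr1d1, 8.55% overlaps Thra on the opposite strand, and the library kit does not mark strand, so reads there cannot be assigned to either gene. Nr1d2, which encodes REV-ERB beta, had 38.8, 44, 47.1 and 31.6 CPM in DTR+ BAT at D4, against 25.1, 24.7, 27 and 23.9 CPM in DTR- BAT. Its DTR+ values were all higher, and the change passed the test (0.74 ± 0.15, edgeR adjusted p 0.00344). At D3 the Nr1d2 ranges did not overlap either, but the change of 0.68 ± 0.18 did not pass (edgeR adjusted p 0.0587) unless low counts were not filtered (edgeR adjusted p 0.00954).

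Dbp, a PAR bZIP gene with a wide daily swing in many tissues, had 14, 16.3, 25.4 and 13.1 CPM in DTR+ BAT at D4 and 4.3, 5.11, 6.34 and 3.87 CPM in DTR- BAT. At D3 it had 22.8, 13.6 and 16.4 CPM in DTR+ BAT and 8.31, 2.04 and 4.76 CPM in DTR- BAT. The DTR+ libraries were all higher than the DTR- libraries at both times, by a log2 fold change of 1.85 ± 0.28 at D4 (edgeR adjusted p 0.000286) and 1.86 ± 0.40 at D3 (edgeR adjusted p 0.0248). The D3 call of Dbp was lost without DTR- replicate 3, DTR+ replicate 1 or DTR+ replicate 3 (log2 1.85, 1.62 and 1.91, edgeR adjusted p 0.0925, 0.122 and 0.0591). Some 18% of Dbp's exonic length overlaps Sphk2 on the opposite strand.

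**Figure D1:**
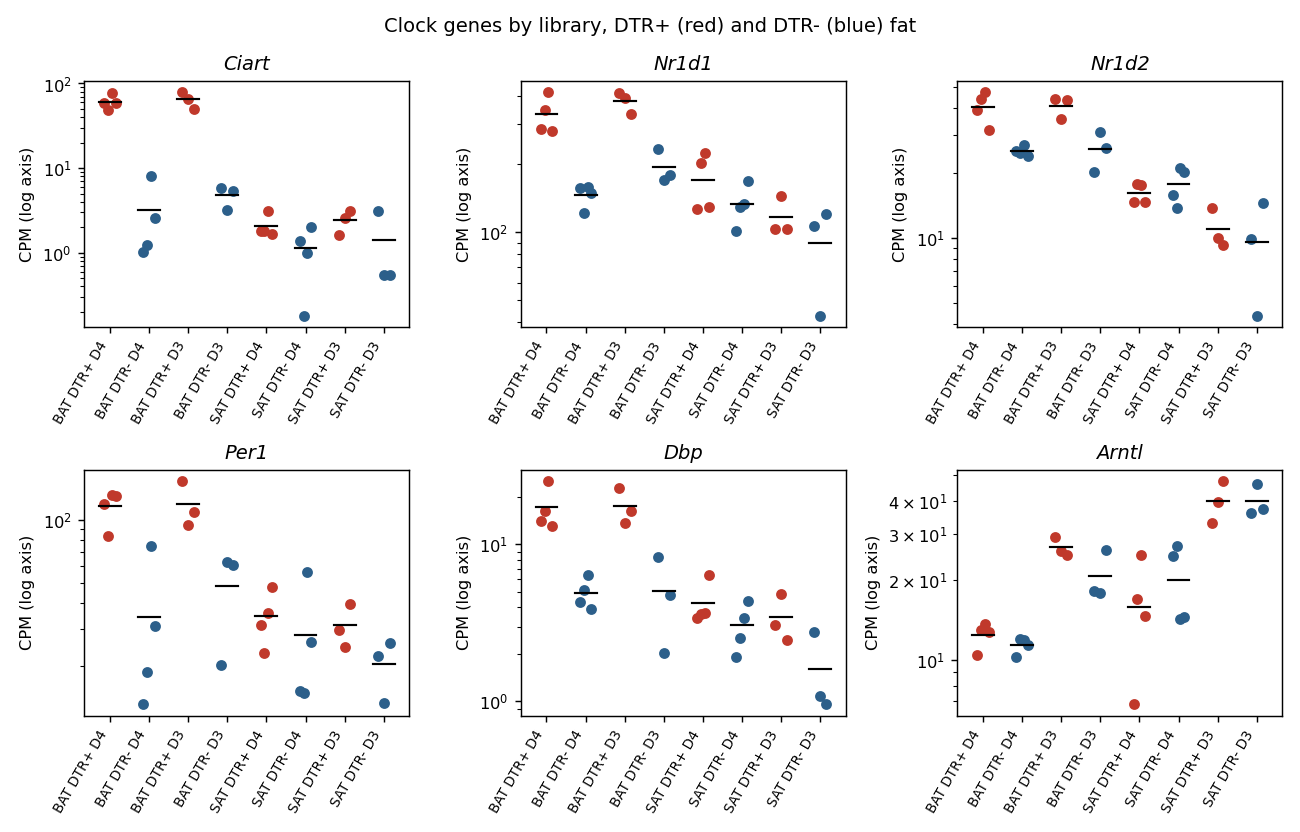
Level of 6 clock genes in each DTR+ (red) and DTR- (blue) library of the D4 and D3 experiments, in BAT and SAT, as CPM on a log axis that differs by panel, with 1 point per library and a bar at the group mean. In BAT, Ciart stood at 48.4 to 78.8 CPM in the DTR+ libraries and at 1.03 to 8.11 CPM in the DTR- libraries, while the SAT libraries of both genotypes lay at 0.181 to 3.15 CPM.

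The Per genes, which encode the PERIOD repressors, moved less evenly. Per1, which also responds quickly to cAMP and to glucocorticoids, had 119, 83.7, 130.4 and 129 CPM in DTR+ BAT at D4, against 13.1, 18.7, 74.7 and 31 CPM in DTR- BAT. At D3 it had 153, 94.2 and 108 CPM in DTR+ BAT, against 20.2, 62.9 and 60.6 CPM in DTR- BAT. The ranges did not overlap at either time, with the DTR- libraries widely spread, and the log2 fold changes of 1.78 ± 0.57 and 1.32 ± 0.49 did not pass (edgeR adjusted p 0.0945 and 0.269). Without DTR- D4 replicate 3 the D4 value was 2.50 (edgeR adjusted p 0.000819), and without DTR- D3 replicate 1 the D3 value was 0.96 (edgeR adjusted p 0.0242). With all libraries, DESeq2 called Per1 at D4 (1.79, adjusted p 0.0136), and so did edgeR with all BAT libraries in 1 fit (1.75, adjusted p 0.00258). The same D4 library, left out, also brought Per2 past the threshold, at 1.58 (edgeR adjusted p 0.0191), against 1.05 ± 0.44 with all libraries (edgeR adjusted p 0.123), and Per2 also passed with no filter on low counts (edgeR adjusted p 0.0249). Per3 gave 0.17 ± 0.16 at D4 and -0.34 ± 0.22 at D3, and its ranges overlapped.

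The activators were not called in either BAT comparison. Arntl had 10.4, 13, 13.7 and 12.8 CPM in DTR+ BAT at D4, against 10.3, 12, 11.9 and 11.4 CPM in DTR- BAT, with a log2 fold change of 0.18 ± 0.21 (edgeR adjusted p 0.645). At D3 Arntl gave 0.38 ± 0.20 (edgeR adjusted p 0.351), and Clock gave -0.03 ± 0.16 at D4 and 0.12 ± 0.16 at D3. Tef, the other PAR bZIP gene of the set, gave 0.29 ± 0.13 at D4 and 0.09 ± 0.17 at D3, with overlapping ranges. The Arntl ranges of the genotypes thus overlapped while those of Ciart, Nr1d1 and Dbp lay apart.

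Counted over the set, 4 of 10 genes rose and none fell in DTR+ BAT at D4 (Ciart, Nr1d1, Nr1d2 and Dbp), where 8.73% of all genes tested rose, 7.36% fell and 16.1% changed in either direction. At D3, 3 of 10 rose and none fell (Ciart, Nr1d1 and Dbp), where 2.24% of all genes rose, 1.29% fell and 3.52% changed in either direction. CPM ranges that did not overlap, with DTR+ higher, were found for 5 genes at D4, against 9.33% of all genes, and for 6 genes at D3, against 11.5%. None of the 10 had DTR+ lower without overlap, against 11.9% of all genes at D4 and 13% at D3. The median log2 fold change of the 10 genes was 0.89 at D4 and 0.66 at D3, and that of all genes tested was 0.02 at both times.

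Cell type markers moved with genotype in these BAT libraries. Macrophage markers (Adgre1, Cd68, Csf1r and Lyz2) summed to 443 to 1031 CPM in DTR+ BAT at D4, against 102 to 292 CPM in DTR- BAT, and 3 of 4 rose. At D3 they summed to 273 to 323 CPM in DTR+ BAT, against 106 to 201 CPM in DTR- BAT, and none of the 4 was called. Brown adipocyte markers summed to 7734 to 9096 CPM in DTR+ BAT at D4, against 12525 to 15057 CPM in DTR- BAT, and 3 of 4 fell. T cell markers (Cd3e, Cd3d, Cd3g and Lck) summed to 9.62 to 25.6 CPM in DTR+ BAT at D4, against 1.38 to 4.09 CPM in DTR- BAT, where Lck, the only marker of the 4 that could be tested, rose. Of 4 red cell markers 2 fell at D4. No macrophage or T cell marker was at 0 in any of these groups. In whole tissue, fewer cells of a type and less RNA per cell cannot be told apart. In SAT, macrophage markers summed to 846 to 1440.3 CPM in DTR+ and 660.2 to 1719 CPM in DTR- libraries at D4. The part of these markers in the BAT values was not tested.

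In SAT the same comparison gave no call among the 10 genes. Ciart had 1.82, 1.8, 3.09 and 1.68 CPM in DTR+ SAT at D4, against 1.38, 0.181, 1 and 2.04 CPM in DTR- SAT. At D3 it had 1.64, 2.56 and 3.12 CPM in DTR+ SAT, against 3.15, 0.545 and 0.548 CPM in DTR- SAT. These levels rest on 1 to 32 counts per library, the ranges overlapped, and the log2 fold changes were 0.84 ± 0.58 and 0.74 ± 0.67. Nr1d1 had 127, 203, 225 and 129 CPM in DTR+ SAT at D4, against 101, 129, 133 and 169 CPM in DTR- SAT, a log2 fold change of 0.37 ± 0.21 (edgeR adjusted p 0.741). Dbp gave 0.48 ± 0.40 at D4 and 1.07 ± 0.54 at D3 (edgeR adjusted p 0.823 and 0.982). The background was sparse too: at D4 edgeR called 0.314% of all genes in either direction (0.299% higher and 0.0157% lower), with 944 genes at an unadjusted p under 0.05, and DESeq2 called none of the 10 genes in SAT. At D3 edgeR called 0% of 12596 genes, with 629 at an unadjusted p under 0.05, and DESeq2 called 18 genes, none of them among the 10. No member's ranges were apart in SAT, against 2.82% (higher) and 2.13% (lower) of all genes at D4 and 5.6% and 4.52% at D3. Leaving out both SAT libraries that stood apart still gave 0 calls among the 10 genes at D4.

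The difference between the depots was tested itself, as the DTR+ over DTR- log2 change in BAT minus that in SAT. At D4 it was 3.36 ± 0.80 for Ciart (edgeR adjusted p 0.028) and 0.84 ± 0.24 for Nr1d2 (edgeR adjusted p 0.0488), 2 of 10 genes, where 3.06% of all genes were higher, 1.05% lower and 4.11% either. Nr1d1 and Dbp differed by 0.83 ± 0.27 and 1.34 ± 0.45 and were not called (edgeR adjusted p 0.0988 and 0.1). Nr1d1 was called by DESeq2 (0.82, adjusted p 0.0465), by edgeR with no filter (adjusted p 0.000108) and with the replicate block (adjusted p 0.0197), which also called Per1 (1.57, edgeR adjusted p 0.000801). The Ciart call was lost without BAT DTR- replicate 4, SAT DTR- replicate 1, SAT DTR- replicate 4 or SAT DTR+ replicate 2 (2.95 to 3.29, edgeR adjusted p 0.0551 to 0.104). The Nr1d2 call was kept in only 6 of 20 alternative fits, with values of 0.76 to 0.94. At D3 the Ciart difference of 3.07 ± 0.68 was similar in size but not called by edgeR (adjusted p 0.0895), where 0.0675% of all genes were called by edgeR and 1459 had an unadjusted p under 0.05. DESeq2 called the D3 Ciart difference, at 3.03 (adjusted p 0.000422), and so did edgeR with no filter on low counts or without SAT DTR- replicate 3 (3.49, adjusted p 0.0293).

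**Figure D2:**
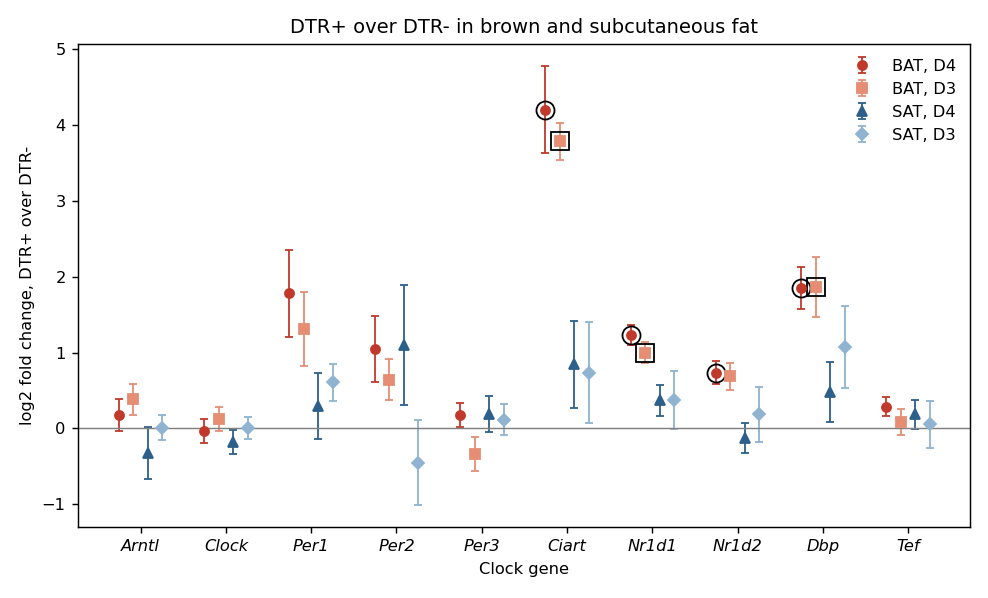
Log2 fold change of DTR+ over DTR- for the 10 clock genes in BAT and SAT at D4 and D3, with bars of 1 SE and open outlines around calls at an adjusted p under 0.05. Ciart stands at 4.21 and 3.79 in BAT and at 0.84 and 0.74 in SAT, and Arntl and Clock lie between -0.32 and 0.38 in the 4 comparisons.

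Other clock genes, from a list of 10 further loop genes, were read beside the set. In DTR+ BAT at D4, 3 of 9 tested rose and none fell, where 8.73% of all genes rose and 7.36% fell. They were Nfil3, a repressor at the D-boxes that DBP and TEF use (2.09 ± 0.34, edgeR adjusted p 0.00265), Bhlhe41, the E-box repressor DEC2 (1.72 ± 0.22, edgeR adjusted p 9.38e-05), and Hlf, a PAR bZIP relative of Dbp (0.90 ± 0.20, edgeR adjusted p 0.00612). At D3 the same 3 genes rose among 8 tested, where 2.24% of all genes rose, by 1.49 ± 0.23, 1.45 ± 0.27 and 0.98 ± 0.21 in the same order. Cry1, a cryptochrome repressor, gave -0.19 ± 0.22 at D4 and -0.43 ± 0.21 at D3 and was not called. In SAT none of the listed loop genes was called at either time. Of 7 clock output genes in DTR+ BAT, none was called at D4 and 1 rose at D3, against the same shares of all genes.

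Lists of genes that answer to stimuli which also reach Per1 were read as well, against the same shares of all genes, 8.73% higher and 7.36% lower at D4 and 2.24% and 1.29% at D3. Of 9 glucocorticoid-response genes 3 rose at D4 in DTR+ BAT, led by Fkbp5, a co-chaperone of the glucocorticoid receptor (1.99 ± 0.47), with the metallothioneins Mt2 (1.42 ± 0.37) and Mt1 (0.63 ± 0.19), and none was called at D3. Of 9 cAMP-response genes 4 rose at D4, among them Pde4b, a cAMP phosphodiesterase (1.05 ± 0.22), and Nr4a3, an orphan nuclear receptor (2.44 ± 0.52). Pde4b also rose at D3 (1.41 ± 0.27). Of 9 genes that follow feeding, 4 fell and 1 rose at D4, with Thrsp, a lipogenic gene, at -1.25 ± 0.12, and Me1, malic enzyme, fell at D3 (-1.58 ± 0.28). Their part in the clock gene values was not tested.

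Ciart was also read by DTR genotype over all BAT libraries, although only the D4, D3 and CL experiments held both genotypes. Over the 16 DTR+ BAT libraries, in 5 groups, Ciart lay between 19.4 and 78.8 CPM with a median of 50.4 CPM. Over the other 22 BAT libraries, in 7 groups, it lay between 0 and 17.5 CPM with a median of 3.23 CPM. The ranges did not overlap, in a split across separate experiments for which the share of all genes without overlap was not counted. Per1 (33.6 to 153 CPM in the DTR+ BAT libraries, 8.18 to 74.7 CPM in the other BAT libraries), Nr1d1 (105 to 416 CPM and 24.6 to 233 CPM) and Dbp (6.03 to 25.4 CPM and 0.694 to 17.6 CPM) did overlap.

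**Figure D3:**
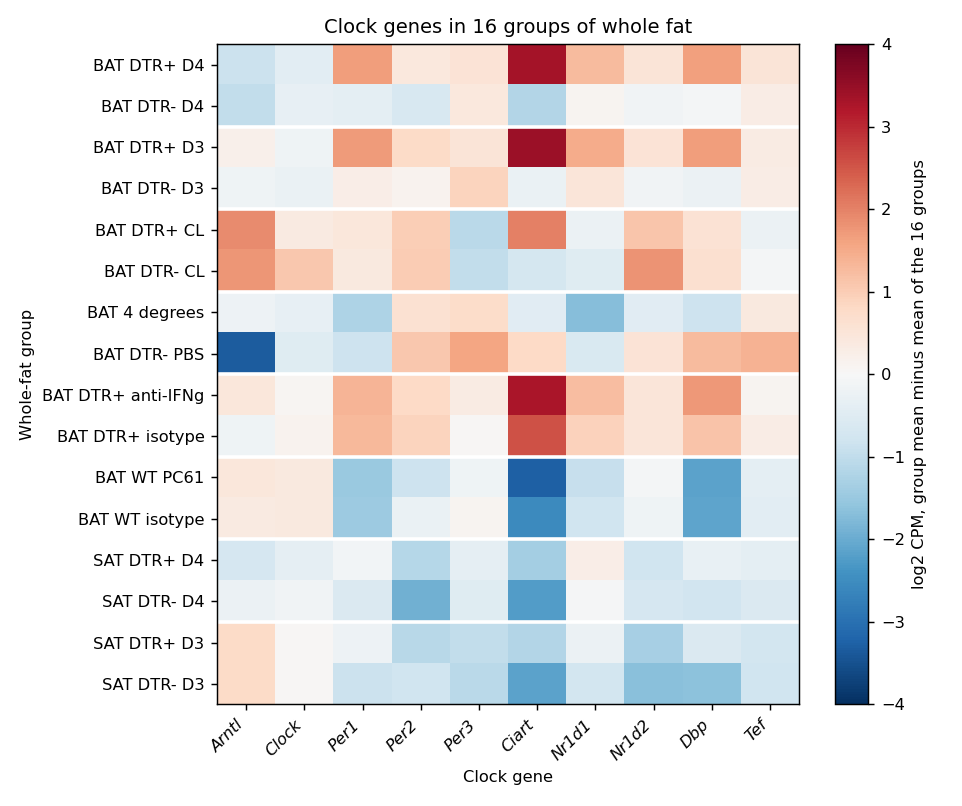
Mean log2 CPM of the 10 clock genes in each of the 16 whole-fat groups, minus the mean of the 16 groups for that gene, with red for higher and blue for lower and white lines between experiments. The Ciart column is red in the 5 DTR+ BAT groups, and the DTR- PBS row stands apart by low Arntl and high Per3 and Tef.

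Under CL the comparison of genotypes called Ciart alone among the 10 genes, with DTR- CL libraries that also enter the CL over PBS comparison. Under CL, Ciart had 32.7, 19.4 and 21.5 CPM in DTR+ BAT, against 4.36, 1.72 and 4.94 CPM in DTR- BAT, and the groups did not overlap. The log2 fold change was 2.71 ± 0.47 (edgeR adjusted p 0.00526), the only call of 10, where 4.51% of all genes rose, 3.21% fell and 7.72% changed in either direction. Ranges did not overlap for 2 higher members and 1 lower, against 16.6% and 13% of all genes. Nr1d1 had 111, 137 and 105 CPM in DTR+ CL BAT, against 103, 92.4 and 96.4 CPM in DTR- CL BAT, without overlap, and its change of 0.26 ± 0.21 was not called (edgeR adjusted p 0.474). Clock and Nr1d2 gave -0.76 ± 0.24 and -0.68 ± 0.23 (edgeR adjusted p 0.0699 and 0.0851). Clock was called by DESeq2 (-0.78, adjusted p 0.0408) and by edgeR with no filter (adjusted p 0.0351), and both genes with all BAT libraries in 1 fit (edgeR adjusted p 0.00588 and 0.0316). Clock also passed without DTR- CL replicate 3 or DTR- PBS replicate 3 (-1.004 and -0.814, edgeR adjusted p 0.023 and 0.0437), and Nr1d2 without DTR+ CL replicate 2 (-0.89, edgeR adjusted p 0.0451). All 4 macrophage markers rose, to a sum of 755 to 879 CPM in DTR+ CL BAT, against 96.1 to 131 CPM in DTR- CL BAT, and their part in the Ciart value was not tested.

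Blocking interferon gamma in DTR+ mice gave no call among the 10 genes. Ciart had 70.3, 46.7 and 59.2 CPM with anti-IFNg, against 24.2, 35.4 and 50.4 CPM with the isotype antibody, and the ranges overlapped. Its log2 fold change was 0.67 ± 0.23 (edgeR adjusted p 0.46), and it passed only when no filter on low counts was applied (0.68, edgeR adjusted p 0.0144). Dbp had 22.5, 14 and 17.6 CPM with anti-IFNg, against 8.01, 14.1 and 14.7 CPM with the isotype antibody (0.55 ± 0.27, edgeR adjusted p 0.638). Both groups held Ciart at 24.2 CPM or more, above every BAT library without the DTR+ genotype, though this experiment held no DTR- group. In all, edgeR called 0.541% of 12017 genes in either direction (0.0333% higher and 0.508% lower), with 982 at an unadjusted p under 0.05, and DESeq2 called none of the 10. The ranges of all 10 overlapped, while 7.36% of all genes were higher and 5.95% lower without overlap.

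PC61, which binds CD25 on Treg cells, gave no call either in wild-type mice. Ciart had 0.37, 0.835 and 0 CPM with PC61 and 1.53, 0.583 and 0.37 CPM with the isotype antibody, and Dbp had 0.925, 1.17 and 0.694 CPM with PC61 and 0.763, 0.971 and 1.11 CPM with the isotype antibody. Both genes fell below the filter on low counts in this comparison and were not tested. The 8 other members gave log2 fold changes from -0.29 ± 0.53 (Per2) to 0.17 ± 0.30 (Nr1d2), all with overlapping ranges. Arntl, for one, had 29.2, 30.9 and 34.3 CPM with PC61, against 32.6, 24.1 and 31.8 CPM with the isotype antibody. Over all genes edgeR called 0.651% in either direction (0.165% higher and 0.486% lower), with 1247 of 11513 at an unadjusted p under 0.05, and DESeq2 called none of the 10. Of all genes, 6.4% were higher and 10.3% lower with PC61 without overlap.

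With CL over PBS, 7 of the 10 genes were called, where 28.1% of all genes tested changed in either direction. Arntl, on chromosome 7 (113207465 to 113314126, plus strand), had 98.2, 70.9 and 69.3 CPM in DTR- BAT with CL, against 1.92, 4.13 and 0.934 CPM with PBS. Clock, its partner, had 116, 102 and 60.2 CPM with CL, against 28.8, 35.7 and 27.6 CPM with PBS. Both were higher in every CL library than in any PBS library, by a log2 fold change (CL over PBS) of 5.28 ± 0.39 for Arntl and 1.68 ± 0.25 for Clock (edgeR adjusted p 6.46e-07 and 0.000276). The PBS level of Arntl rests on 34 counts over 3 libraries, with at most 17 in any of them. Per3, the gene whose window holds 2 D-boxes, had 20.7, 29.2 and 17.2 CPM with CL, against 129, 117 and 157 CPM with PBS (-2.49 ± 0.33, edgeR adjusted p 9.78e-05). Tef had 41.1, 70.5 and 38.8 CPM with CL, against 118, 152 and 135 CPM with PBS (-1.34 ± 0.24, edgeR adjusted p 0.00113). Per3 and Tef were thus lower in every CL library. Nr1d2 had 101, 104 and 87.5 CPM with CL, against 30.0, 49.8 and 44.6 CPM with PBS, and rose by 1.32 ± 0.24 (edgeR adjusted p 0.00113). Its relative Nr1d1 had 103, 92.4 and 96.4 CPM with CL, against 113, 95 and 66.3 CPM with PBS, and was not called (0.18 ± 0.21, edgeR adjusted p 0.545). Both REV-ERB genes were called in DTR+ BAT at D4, but only Nr1d2 here.

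Per1 rose with CL (1.30 ± 0.34, edgeR adjusted p 0.0117) and Ciart fell (-1.46 ± 0.47, edgeR adjusted p 0.0322), while Dbp (-0.42 ± 0.46) and Per2 (0.03 ± 0.37) overlapped between the groups. In all, 4 of 10 members rose and 3 fell, where 16.3% of all genes rose, 11.8% fell and 28.1% changed in either direction. Ranges that did not overlap were found for the same numbers, 4 higher and 3 lower, against 21% and 25.1% of all genes. The Ciart call was lost without CL replicate 1, CL replicate 2 or PBS replicate 2 (log2 -1.54, -1.12 and -0.96, edgeR adjusted p 0.0637, 0.108 and 0.161). Against these shares, among the other loop genes, Nfil3 (4.97 ± 0.53), Cry1 (1.31 ± 0.36) and Rora, a ROR activator of Arntl (0.88 ± 0.29), rose and Hlf fell (-1.92 ± 0.34), of 8 tested. Of 9 cAMP-response genes 5 rose, led by Nr4a3 (5.18 ± 0.32) and Ppargc1a, the coactivator PGC-1 alpha (4.89 ± 0.32). Of 7 clock output genes 2 rose, led by Noct, a rhythmic phosphatase gene (3.35 ± 0.33), and 2 fell, led by Usp2, a deubiquitinase gene (-1.30 ± 0.28). Mean CPM with CL, with PBS, in DTR- D3 and in DTR- D4 BAT was 20.7, 8.87, 27.1 and 17.7 for Cry1. In the same order it was 25.7, 68.1, 29.6 and 34.3 for Usp2, and 191, 6.38, 18.1 and 9.48 for Nfil3. These lists were not tested against DTR- D3 or DTR- D4 BAT. Among cell type markers, 2 of 4 macrophage and 2 of 4 T cell markers fell and 3 of 3 endothelial markers rose with CL. The macrophage sum was 96.1 to 131 CPM with CL and 208 to 549 CPM with PBS. The T cell sum was 1.09 to 4.08 CPM with CL, and 2.92, 8.07 and 75.7 CPM in the PBS libraries. The endothelial sum was 349 to 408 CPM with CL and 109.8 to 211 CPM with PBS. It was 241 to 405 CPM in DTR- D3 and 288 to 343 CPM in DTR- D4 BAT. The part of these markers in the clock gene values was not tested.

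The DTR- PBS libraries stood apart from the other BAT controls in several of these genes. Arntl had 0.934 to 4.13 CPM in DTR- PBS BAT, against 10.3 to 32.6 CPM over the 10 libraries of DTR- D3, DTR- D4 and wild-type isotype BAT. Per3 had 117 to 157 CPM in DTR- PBS BAT, against 39.6 to 101 CPM in those 10 libraries, and Tef 118 to 152 CPM against 33.4 to 69.3 CPM. None of these ranges overlapped, in a split for which the share of all genes without overlap was not counted. Dbp, at 8.02 to 17.6 CPM in DTR- PBS BAT, only just met the 0.763 to 8.31 CPM of the 10 others. The CL change was therefore also set against the DTR- libraries of D3 and of D4, a choice made after seeing the data that crosses experiments.

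Against the D3 controls Arntl rose by 2.02 ± 0.23 and against the D4 controls by 2.87 ± 0.19 (edgeR adjusted p 8.11e-05 and 2.05e-07). Clock (1.48 ± 0.23 and 1.51 ± 0.20) and Nr1d2 (2.00 ± 0.20 and 2.02 ± 0.14) rose and Per3 (-1.81 ± 0.23 and -1.35 ± 0.22) fell against both. These 4 genes were called against all 3 controls. Tef (-0.25 ± 0.23 and -0.26 ± 0.20), Per1 (0.07 ± 0.36 and 0.52 ± 0.58) and Ciart (-0.28 ± 0.53 and 0.24 ± 0.70) were called against neither. Nr1d1 was lower against both (-0.90 ± 0.16 and -0.52 ± 0.14, edgeR adjusted p 0.00135 and 0.00804) and Per2 higher (0.99 ± 0.36 and 1.62 ± 0.45). These contrasts called 36.8% and 41.8% of all genes, so the 6 members called in each stand on a high background. Over all BAT libraries, the 6 with CL, of both genotypes, held Arntl at 69.3 to 98.2 CPM, and the 32 without CL held it at 0.934 to 35.0 CPM. This split also crosses experiments, and the share of all genes without overlap in it was not counted.

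**Figure D4:**
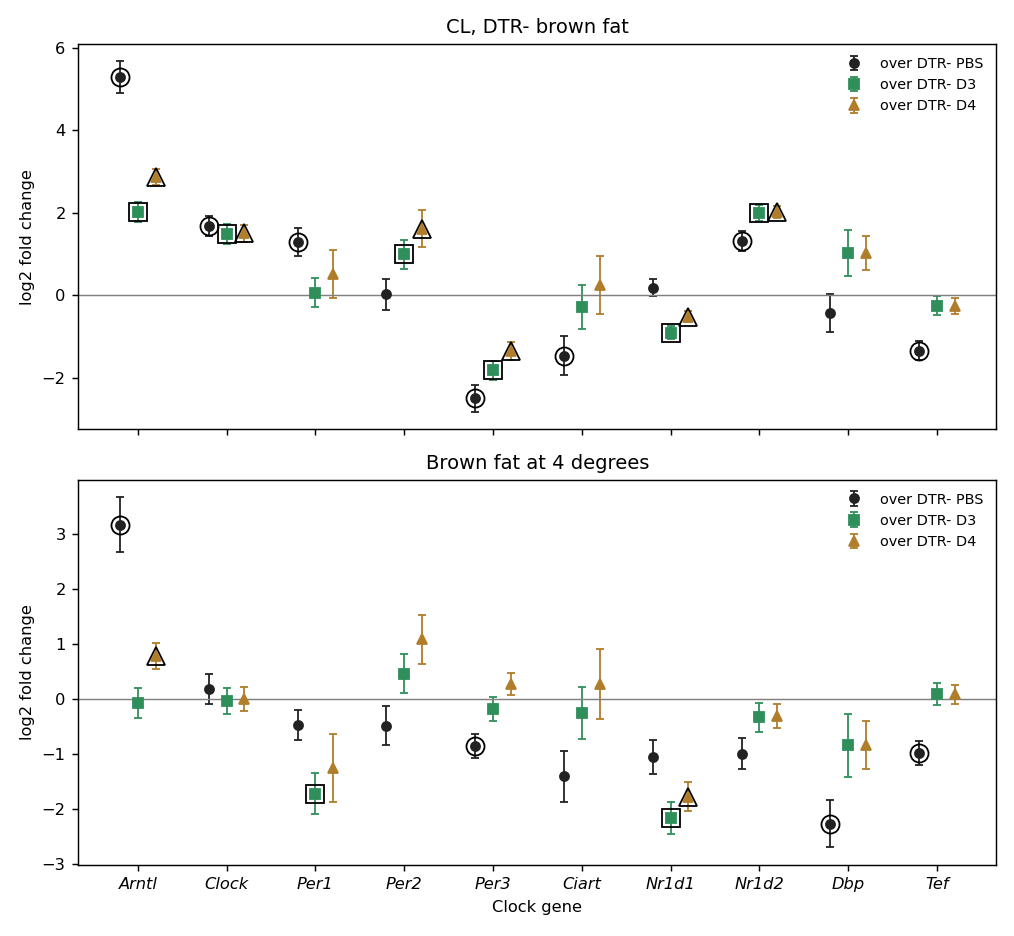
Log2 fold change of the 10 clock genes in DTR- BAT with CL (top) and in BAT at 4 degrees (bottom), over 3 control groups in DTR- BAT: PBS, D3 and D4, with bars of 1 SE and open outlines around calls at an adjusted p under 0.05. With CL, Arntl is higher over each control (5.28, 2.02 and 2.87), while at 4 degrees it stands at 3.18, -0.07 and 0.78.

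BAT at 4 degrees was compared with the same DTR- PBS libraries, so the CL and cold contrasts share their controls and their values are given side by side only. The cold mice also lacked the toxin that the PBS mice received, and their titles say WT. Temperature, toxin, experiment and any difference of genotype cannot be told apart. Arntl had 25.4, 14.6 and 21.5 CPM at 4 degrees, against 1.92, 4.13 and 0.934 CPM in DTR- PBS BAT (3.18 ± 0.50, edgeR adjusted p 0.00388). Dbp had 2.32, 3.68 and 2.53 CPM at 4 degrees, against 15, 8.02 and 17.6 CPM in DTR- PBS BAT (-2.27 ± 0.43, edgeR adjusted p 0.00949). Neither pair of ranges overlapped, with Arntl higher and Dbp lower in the cold. Tef had 64.9, 92.9 and 51.1 CPM at 4 degrees, against 118, 152 and 135 CPM in DTR- PBS BAT (-0.99 ± 0.21, edgeR adjusted p 0.0169). Per3 fell by a similar size (-0.85 ± 0.22, edgeR adjusted p 0.0374). Thus 1 of 10 members rose and 3 fell, where 4.86% of all genes rose, 3.8% fell and 8.66% changed in either direction, and ranges did not overlap for 1 higher and 6 lower members, against 16.6% and 13.4% of all genes. Among the 8 other loop genes tested, Cry1 rose (1.46 ± 0.34, edgeR adjusted p 0.0221). Of the cell type markers, Adipoq, Plin1, Cidea and Adgre1 fell and Ucp1 and Pecam1 rose at 4 degrees. Endothelial markers summed to 333 to 408 CPM at 4 degrees, against 109.8 to 211 CPM in DTR- PBS BAT, and macrophage markers to 153 to 200.1 CPM, against 208 to 549 CPM. Cold replicate 1 also held liver markers (Alb and Apoa1) at 196 CPM, against 7.88 and 7.94 CPM in the other cold libraries and 0 to 1.46 CPM in DTR- PBS BAT. The part of these cells in the clock gene values was not tested.

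Most of these cold calls rested on the PBS controls. Against the D3 and D4 controls Arntl gave -0.07 ± 0.27 and 0.78 ± 0.24 (edgeR adjusted p 0.881 and 0.0232), Tef 0.09 ± 0.20 and 0.08 ± 0.18, Per3 -0.19 ± 0.22 and 0.28 ± 0.20, and Dbp -0.85 ± 0.57 and -0.84 ± 0.44. Of these, only Arntl against D4 was called. Per1, not called against PBS (-0.47 ± 0.27), was lower against D3 (-1.72 ± 0.37, edgeR adjusted p 0.00858) and not called against D4 (-1.26 ± 0.62, edgeR adjusted p 0.173). Nr1d1 had 51.1, 24.6 and 58.7 CPM at 4 degrees, against 113, 95 and 66.3 CPM in DTR- PBS BAT, and was not called there by edgeR (-1.06 ± 0.31, edgeR adjusted p 0.0631). DESeq2 called Nr1d1 and Nr1d2 against PBS (adjusted p 0.00588 and 0.0138), and so did edgeR with no filter (adjusted p 6.89e-06 and 0.00294). Nr1d1 was lower against the D3 and D4 controls as well (-2.17 ± 0.29 and -1.78 ± 0.26, edgeR adjusted p 0.00113 and 0.000707). In these contrasts 22.5% (D3) and 31.2% (D4) of all genes were called. With PBS as control, the Per3 call was lost when any 1 of the 6 libraries was left out (-0.998 to -0.632, edgeR adjusted p 0.0553 to 0.0939). The Tef call was lost without PBS replicate 2, cold replicate 1 or cold replicate 3 (-0.93 to -0.81, edgeR adjusted p 0.0625 to 0.0713). Nr1d1 passed without PBS replicate 3 (-1.26, edgeR adjusted p 0.0329), and Nr1d2, not called with all libraries (edgeR adjusted p 0.0504), passed without PBS replicate 1 or cold replicate 1 (-1.19 and -1.24, edgeR adjusted p 0.0496 and 0.0464).

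Brown and subcutaneous fat of DTR- mice were set side by side as BAT over SAT. Arntl had 10.3, 12, 11.9 and 11.4 CPM in BAT at D4, against 24.8, 26.9, 14.3 and 14.5 CPM in SAT, and 18.2, 17.8 and 26 CPM in BAT at D3, against 35.8, 46.3 and 37.1 CPM in SAT. It was lower in BAT without overlap at both times (-0.78 ± 0.23 and -0.90 ± 0.20, edgeR adjusted p 0.0115 and 0.00225). Per3 had 101, 77.6 and 71.8 CPM in BAT at D3, against 24.3, 20.3 and 17.7 CPM in SAT, and was higher in BAT at D4 too (2.03 ± 0.18 at D3 and 0.93 ± 0.17 at D4). Tef (0.85 ± 0.17 at D4 and 1.06 ± 0.23 at D3) and Nr1d2 (0.53 ± 0.18 and 1.44 ± 0.34) were also higher in BAT. At D4, 3 of 10 members were higher and 1 lower in BAT, where 25.9% of all genes were higher, 25% lower and 50.9% either. The same 3 and 1 had ranges that did not overlap, against 23.8% and 24.1% of all genes. At D3, 6 were higher, with Nr1d1 (1.13 ± 0.38), Dbp (1.62 ± 0.61) and Ciart (1.72 ± 0.64) beside these 3, and 1 lower, where 23% of all genes were higher, 22.9% lower and 45.9% either. Ranges did not overlap for 5 higher and 2 lower members at D3, against 27% and 29.7% of all genes. Cell type markers moved with depot too. All 4 macrophage, all 3 fibroblast and 2 of 3 Schwann cell markers were lower in BAT at both times, all 4 brown adipocyte markers were higher, and so were 3 of 3 endothelial markers at D4 and 2 of 3 at D3. Their part in these values was not tested.

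Several of these depot calls hung on single libraries. At D4 the Nr1d2 call was lost without BAT replicate 1, 2 or 3 or SAT replicate 1 or 2 (0.43 to 0.50, edgeR adjusted p 0.0535 to 0.0691). At D3 the Ciart and Dbp calls were each lost without BAT replicate 1 or 3 or SAT replicate 2 or 3 (Ciart 1.31 to 1.63, Dbp 1.09 to 1.65, edgeR adjusted p 0.0811 to 0.202). The D3 Nr1d1 call was lost without BAT replicate 1, 2 or 3 or SAT replicate 1 (0.98 to 1.27, edgeR adjusted p 0.0675 to 0.14). Per2 passed at D4 without SAT replicate 3 (2.09, edgeR adjusted p 0.00743) and at D3 without SAT replicate 2 (1.44, edgeR adjusted p 0.0376), and Per1 at D3 without BAT replicate 1 (1.62, edgeR adjusted p 0.000117).

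Whether compared groups look as if collected at different clock times was read from the difference of log2 CPM between Dbp and Arntl in each library, which in mouse tissue rises and falls over the day. Gene lengths differ, so only differences between groups are read, not the sign. The value was 0.41 ± 0.35 in DTR+ BAT and -1.19 ± 0.25 in DTR- BAT at D4 (SD, n = 4 each), without overlap. At D3 it was -0.62 ± 0.28 in DTR+ BAT and -2.14 ± 0.94 in DTR- BAT (SD, n = 3 each), also without overlap. Dbp was called at both times and Arntl at neither. In SAT the value was -1.73 ± 0.81 in DTR+ and -2.60 ± 0.91 in DTR- at D4 (SD, n = 4 each), and -3.45 ± 0.59 in DTR+ and -4.49 ± 0.82 in DTR- at D3 (SD, n = 3 each), with overlap at both times. A second difference, Per2 minus Nr1d1, did not set the BAT genotypes apart. It was -5.10 ± 0.81 in DTR+ and -4.99 ± 0.74 in DTR- BAT at D4 (SD, n = 4 each), and -4.95 ± 0.18 in DTR+ and -4.60 ± 0.56 in DTR- BAT at D3 (SD, n = 3 each), with overlap at both times.

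Between the other BAT experiments the value ranged widely. With CL the value was -3.42 ± 0.29 in DTR+ and -3.19 ± 1.18 in DTR- BAT, and DTR- PBS BAT, the control of the same experiment, stood at 2.51 ± 1.49 (SD, n = 3 each). BAT at 4 degrees stood at -2.71 ± 0.72 (SD, n = 3). Per2 minus Nr1d1 was -2.74 ± 0.39 in DTR- CL BAT and -1.96 ± 1.17 at 4 degrees, against -2.56 ± 0.74 in DTR- PBS BAT (SD, n = 3 each). Arntl was called against PBS both with CL and at 4 degrees, and Dbp at 4 degrees only. Anti-IFNg gave -0.82 ± 0.45 and its isotype control -0.75 ± 0.69, while PC61 gave -4.69 ± 0.37 and its isotype control -4.55 ± 0.35 (SD, n = 3 each), and within both pairs the means differed by less than 1 SD. Since no label gives the hour of collection, collection time and treatment cannot be told apart in any of these contrasts.

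**Figure D5:**
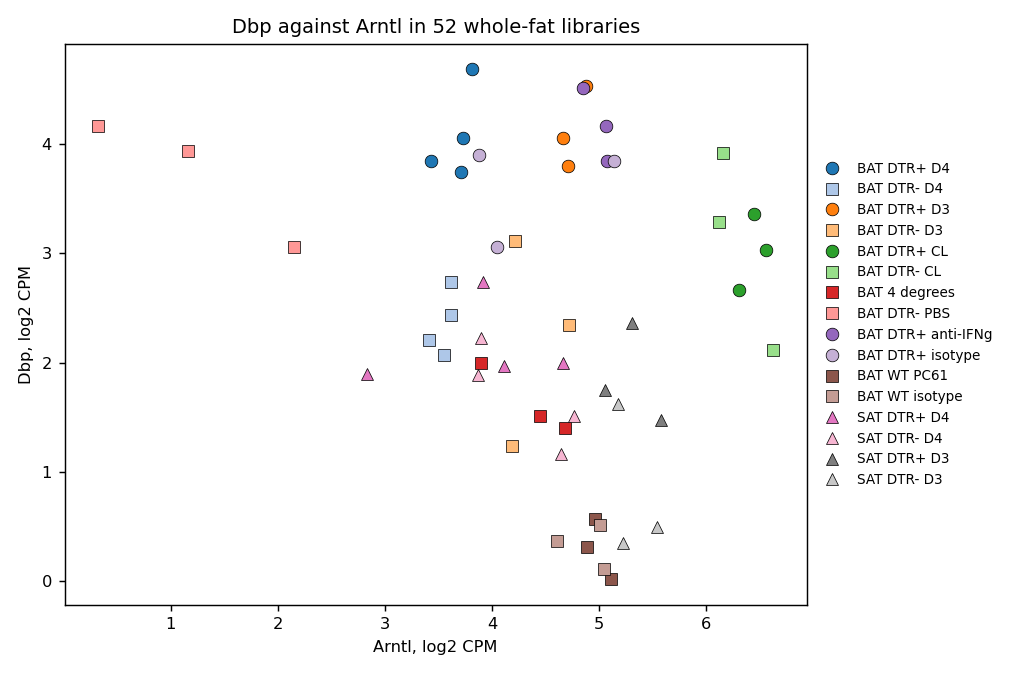
Log2 CPM of Dbp against log2 CPM of Arntl in each of the 52 whole-fat libraries, with circles for DTR+ BAT, squares for other BAT and triangles for SAT. The 3 DTR- PBS libraries lie alone at the left, the 6 CL libraries at the right, and the PC61 libraries among their isotype controls at the bottom, while DTR+ D4 and D3 libraries lie above their DTR- controls at similar Arntl.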

How the data were processed

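Gene counts of whole fat were made from 2 ng of RNA by oligo(dT) priming, Smart-seq2 and Nextera XT, per the labels' protocols. The authors aligned reads with STAR 2.7.3a to mm10 and made the deposited counts with featureCounts, per the submitters' processing notes, which list the tools without their roles. Neither the labels nor the notes give the annotation release, the strand setting or the treatment of multi-mapping reads. The 8 sorted Treg libraries were not used here.

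From the counts as deposited, each comparison was fitted on its own groups with edgeR 4.0.16 in R 4.3.3 (filterByExpr with a minimum count of 10, TMM, robust quasi-likelihood test). P-values were adjusted by Benjamini-Hochberg over all genes tested, with calls under 0.05, and the SE is the log2 fold change divided by the root of F. CPM and log2 CPM (prior count 2) were scaled by TMM over the 52 whole-fat libraries and 15101 genes. DESeq2 1.42.0, other size factors, no filter, a replicate block, each library left out and other controls were alternatives. The members and lists were chosen with earlier results of these data known. The 10 members are always named, and of each other list at most 4 called genes per comparison, lowest p first, plus Cry1, chosen after its values were seen. A gene among those most unlike Dbp is not reported here. On simulated counts with 200 changed genes, over 13 comparisons, edgeR found 14 to 58% of genes changed by log2 1 and 64 to 93% of those changed by log2 2, with 3.66 to 8.54% false calls. No replicate pair agreed within sampling noise (60 pairs, chi-square per degree of freedom 7.14 to 37.6). Gene positions are from GENCODE M21 on mm10.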

Additional observations from a re-analysis of the deposited data

Results flagged for a closer look

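Over 40 pairs of a group of 4 libraries and a clock gene, 2 held a library far from the others, and chance flags about 1 in 20 groups. Ciart had 3.09 CPM in SAT DTR+ D4 replicate 3, against 1.68 to 1.82 CPM in the other 3 libraries of that group. Dbp had 6.34 CPM in SAT DTR+ D4 replicate 4, against 3.41 to 3.67 CPM in the others.

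The DTR+ over DTR- change differed between depots at D4 by a test of the difference itself. The log2 change in BAT minus that in SAT was 3.36 for Ciart and 0.84 for Nr1d2.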

How the results depend on the processing

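Of the single values under alternatives, 1634 were counted as unchanged, 46 passed the threshold newly, 62 lost it and 7 turned round. Values called in neither fit count as unchanged whatever their direction. The unchanged values also include group means of Dbp minus Arntl and of Per2 minus Nr1d1, which have no threshold. The 4 calls in DTR+ BAT at D4 held in all 13 alternatives, and the Ciart call under CL in all 14. With all libraries of the depot in 1 fit, 3 members were called for DTR+ over DTR- under CL and 7 at 4 degrees, in place of 1 and 4. DESeq2 and the fit with no filter each called 2 under CL and 1 in the D3 difference between depots, and no filter called 1 with anti-IFNg. Other size factors (RLE) left 1 call in the D4 difference between depots. At 4 degrees 2 members were called against the D3 controls (Per1 and Nr1d1, neither called against PBS) and 2 against the D4 controls (Arntl, and Nr1d1 newly), while Arntl (-0.0702) and Tef (0.0924) turned round against D3, and Per3 (0.28) and Tef (0.0840) against D4. With CL, Nr1d1 turned round against D3 (-0.90) and D4 (-0.52), and Ciart against D4 (0.24), controls chosen after seeing the data. The causes were not tested.

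With each library left out in turn, members called ranged from 4 to 6 (D4 BAT), 2 to 4 (D3 BAT), 0 to 0 (both SAT comparisons, PC61 and anti-IFNg), 6 to 7 (CL), 1 to 2 (genotype under CL), 2 to 4 (4 degrees), 3 to 5 and 4 to 6 (depots at D4 and D3), and 0 to 2 and 0 to 1 (difference between depots at D4 and D3). In no comparison did every same-numbered pair correlate over 0.1, so the numbers are not taken as pairs. At D4, 3 of 4 DTR- libraries correlated best with their own number across depots. With the replicate block the counts were 5 (D4 BAT, adding Per2), 0 (both SAT), 3 (D3 BAT), 6 (CL), 1 (genotype under CL), 0 (PC61), 3 (4 degrees), 5 and 7 (depots at D4 and D3), and 3 and 0 (difference between depots at D4, where Ciart, Per1 and Nr1d1 were called and Nr1d2 was not, and at D3). For the anti-IFNg comparison alone, no paired analysis was possible because its groups share only replicate number 4. Over all genes, DESeq2 called 73 higher and 13 lower in SAT at D4 (edgeR 38 and 2), 59 and 153 with PC61 (edgeR 19 and 56), 15 and 84 with anti-IFNg (edgeR 4 and 61), 636 and 313 in the D4 difference between depots (edgeR 413 and 142) and 90 and 34 in the D3 difference. In SAT at D3 the fit with no filter called 68 and 4 and the replicate block 11 and 0, where edgeR called none with the filter. Only 2 of the 10 genes most like or unlike Dbp were shared with a ranking by Spearman rho. Depth limits Ciart in SAT (1 to 32 counts) and in wild-type BAT. It also limits Arntl in DTR- PBS BAT (34 counts over 3 libraries), the control for CL and for 4 degrees.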

Other observations

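Over the 12 BAT group means of log2 CPM, Dbp was most like Slc7a8 (Pearson r 0.94), an amino acid transporter gene, among 9175 genes with a mean of at least 5 CPM. The next were Dedd2, Prkcd and Sidt2 (each 0.89) and Cxcl16 (0.88). Among the most unlike were Prpf4 (-0.89), Hspa4l (-0.88), and AI597479 and Aldh3a2 (each -0.87). Among the clock genes, r with Dbp was 0.91 for Ciart, 0.85 for Per1, 0.74 for Per2 and 0.72 for Nr1d1, but 0.14 for Per3, -0.18 for Arntl and -0.27 for Clock. These are descriptions over group means, and 5 of the 12 groups are DTR+.

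Per1 was highest in replicate 3 of the DTR- D4 group in both depots. It had 74.7 CPM in BAT replicate 3, against 13.1 to 31.0 CPM in the other 3 BAT libraries, and 56.0 CPM in SAT replicate 3, against 14.8 to 26.1 CPM in the other 3 SAT libraries. The labels do not say whether these libraries came from the same mouse.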
